A study of Mus musculus with 8 samples.

Results

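The dual-specificity MAP kinase phosphatases examined here were 10 of the 47493 genes in the deposited table, namely *Dusp1*, *Dusp2*, *Dusp4*, *Dusp5*, *Dusp6*, *Dusp7*, *Dusp10*, *Dusp12*, *Dusp16* and *Dusp22*. They were picked by gene symbol, and each had a single entry. RNA was sequenced from endogenous CD8+ T cells of 4 female C57BL/6 mice, aged 6 to 8 weeks at the start, which gave 4 libraries of IL18Rαhi-enriched cells and 4 of the flow-through that the IL-18Rα antibody column did not retain. All mice carried B16F10 melanoma (200000 cells on day 0) and had received cyclophosphamide (300 mg/kg, day 3), 2000000 Pmel-1 T cells on day 5, IL-2 (10000 IU, daily for 3 days) and the CD4-depleting antibody GK1.5 (200 μg on days 10, 17 and 24). Both fractions of a mouse were taken on day 25 from inguinal lymph nodes and spleen, after removal of the Thy1.1+ Pmel-1 cells, so every treatment was shared by the groups and mice without anti-CD4 were not part of the comparison. The labels number the libraries 1 to 4 in each fraction without naming the mouse, and libraries with the same number were taken as those of 1 mouse. Selection was magnetic, and a library is therefore a mixture enriched or depleted for IL-18Rα.

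MAP kinases are switched on by phosphorylation of a threonine and a tyrosine in the activation loop, and dual-specificity phosphatases remove both phosphates. *Dusp1*, *Dusp2*, *Dusp4* and *Dusp5* encode inducible nuclear enzymes, *Dusp6* and *Dusp7* cytoplasmic enzymes selective for ERK, and *Dusp10* and *Dusp16* enzymes that act on JNK and p38. *Dusp12* and *Dusp22* are atypical members without the MAP kinase-binding domain. Several are induced by the pathway they switch off, and in T cells they are known as feedback regulators of antigen receptor signaling.

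Values are FPKM, fragments scaled to transcript length and to the mapped fragments of the library, which allow levels of different genes to be compared per length. Library depth, estimated from genes of very low value, was 14500000 to 17500000 fragments, with overlap between the fractions. *Il18r1*, which encodes the selected receptor, ranged from 22.2 to 37.2 FPKM in the flow-through and from 107 to 116 FPKM after enrichment, as labelled. Flow-through replicate 1 stood apart from the other flow-through libraries. The summed level of 8 CD8 T-cell identity genes was 1337 FPKM there, 2144 to 2548 FPKM in flow-through replicates 2 to 4 and 2542 to 2724 FPKM in the IL18Rαhi libraries, and the sum of 8 erythroid genes was 2705 FPKM against 876.5 to 1501 FPKM. Among the IL18Rαhi libraries the erythroid sum was also highest in replicate 1, at 1512 FPKM against 217 to 631 FPKM. Flow-through replicate 1 also held the lowest flow-through level of 8 of the 10 phosphatase genes and the highest of *Dusp16*. Differences without it are given below for each gene.

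Of the 10 genes, 3 were higher in IL18Rαhi cells, *Dusp5*, *Dusp4* and *Dusp7*, and none passed the test as lower. The test was limma on log2(FPKM + 1) over the 12166 genes that averaged at least 1 FPKM, which all 10 members reached, with Benjamini-Hochberg adjusted p under 0.05 as the threshold. It called 14.1% of all genes tested higher and 13.7% lower. At an unadjusted p under 0.05, 4 members were higher and 1 was lower, where 20% of all genes tested were higher and 21.3% lower. The median log2 fold change was 0.02 over the members and -0.02 over all genes tested. With the mouse as a block, since both fractions came from each mouse, *Dusp22* was higher and *Dusp12* lower as well, so that 4 members were higher and 1 lower, where 22.2% and 22.7% of all genes were called. The fractions did not overlap for 3 members with higher values and 1 with lower values, against 16.4% and 15.9% of all genes. In such bulk libraries, more RNA per cell and more cells of a type that expresses a gene cannot be told apart.

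**Figure D1:**
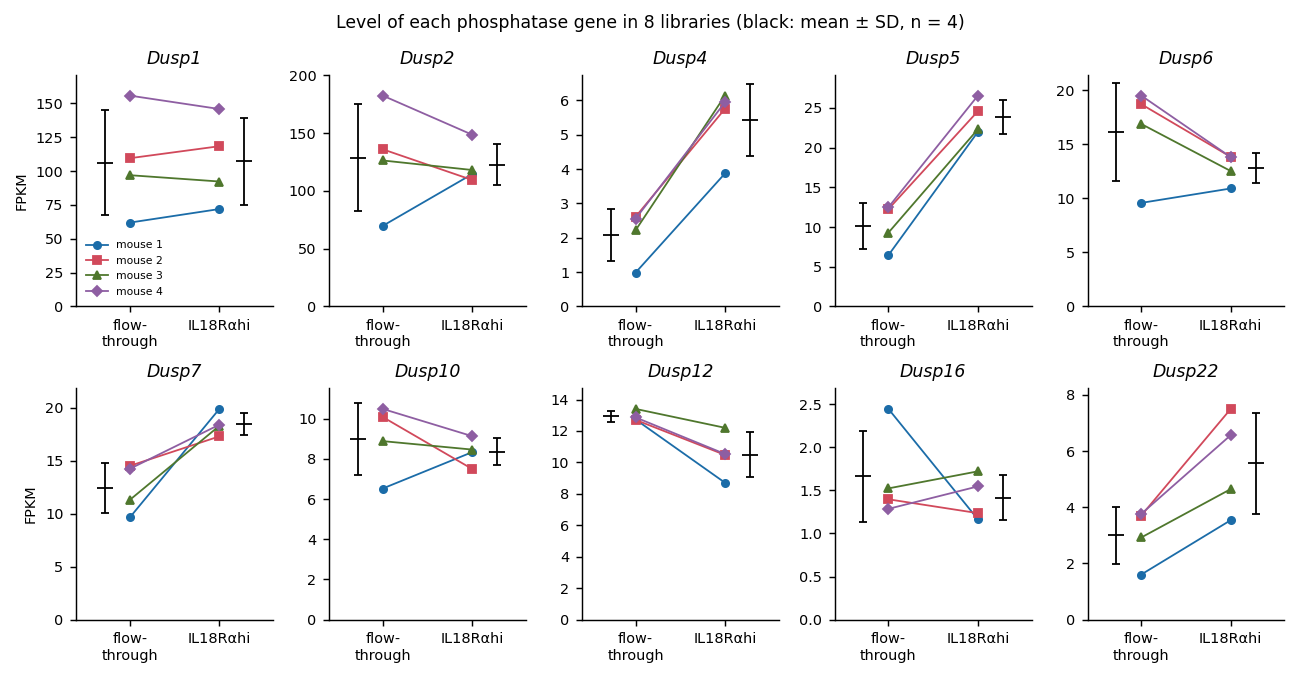
FPKM of the 10 phosphatase genes in each library, with flow-through on the left and IL18Rαhi on the right of each panel. Lines join the libraries of a mouse and black bars give the mean ± SD of 4 libraries. *Dusp4*, *Dusp5*, *Dusp7* and *Dusp22* lines rise and *Dusp12* lines fall in 4 of 4 mice, while *Dusp1* lines run nearly flat at a level that differs between mice.

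Upstream sequence is shown for a member that rose in each mouse (*Dusp5*) and for a member of high level that differed between mice (*Dusp1*). It is also shown for the cytoplasmic pair *Dusp7* and *Dusp6*, of which *Dusp7* alone passed the test. The stretches are from RefSeq promoters (GRCm38.p6, the mm10 build), read 5′ to 3′ on the strand of the gene, and end before the first base of an annotated exon of the gene. The RefSeq start of *Dusp1* lies inside the longer annotated gene. They are chr19:53528895-53529108 on the plus strand for *Dusp5*, chr17:26508520-26508722 on the minus strand for *Dusp1*, chr9:106368382-106368631 on the plus strand for *Dusp7* and chr10:99262981-99263230 on the plus strand for *Dusp6*. Capitals mark a match to a CArG box, which serum response factor binds, in *Dusp5* and to the cyclic AMP response element TGACGTCA in *Dusp1*.
Dusp5 promoter: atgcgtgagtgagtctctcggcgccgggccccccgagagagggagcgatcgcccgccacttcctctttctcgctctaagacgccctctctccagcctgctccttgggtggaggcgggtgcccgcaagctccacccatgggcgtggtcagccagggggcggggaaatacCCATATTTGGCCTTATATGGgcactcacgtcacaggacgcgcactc
Dusp1 promoter: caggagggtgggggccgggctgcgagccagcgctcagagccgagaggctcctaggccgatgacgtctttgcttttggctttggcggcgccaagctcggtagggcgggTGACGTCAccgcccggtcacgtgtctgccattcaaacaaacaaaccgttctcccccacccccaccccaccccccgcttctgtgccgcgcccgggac
Dusp7 promoter: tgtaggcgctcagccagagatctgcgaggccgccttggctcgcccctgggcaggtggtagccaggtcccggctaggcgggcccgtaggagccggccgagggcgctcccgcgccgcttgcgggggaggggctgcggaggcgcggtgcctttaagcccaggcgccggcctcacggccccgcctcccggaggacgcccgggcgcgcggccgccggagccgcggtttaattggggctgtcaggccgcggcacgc
Dusp6 promoter: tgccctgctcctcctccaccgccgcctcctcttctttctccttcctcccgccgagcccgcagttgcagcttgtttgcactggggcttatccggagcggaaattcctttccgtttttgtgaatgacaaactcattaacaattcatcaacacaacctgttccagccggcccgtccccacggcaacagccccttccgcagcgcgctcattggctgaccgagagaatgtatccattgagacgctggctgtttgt

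Windows of 250 bases before the RefSeq start were available for 9 members. The *Dusp5* window held 2 CArG boxes, CCATATTTGG and CCTTATATGG, that begin 82 and 72 bases before the start and lie end to end. At least 1 CArG box was found in 1.47% of 32851 RefSeq windows of that length, and 2 or more in 0.0183%. The *Dusp1* window held TGACGTCA 143 bases before the start, and 1.55% of all windows held it. A κB site (3.90% of all windows) was found in the *Dusp22* window alone among the members. The AP-1 motif TGANTCA, the ETS motif CCGGAA and the T-box motif AGGTGTGA, found in 6.75%, 12.0% and 1.12% of all windows, were in none of the 9. Both strands were searched, and the matches of the members did not overlap each other. Such a match describes letters in a window and not binding.

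*Dusp5* (ENSMUSG00000034765; mm10 chromosome 19, 53529109 to 53542431, plus strand) encodes a nuclear phosphatase that acts on ERK alone among the MAP kinases. Its FPKM was 6.45, 12.3, 9.29 and 12.5 in flow-through replicates 1 to 4 and 22.0, 24.6, 22.3 and 26.6 in IL18Rαhi replicates 1 to 4. Every IL18Rαhi library lay above every flow-through library, and the gene was higher in 4 of 4 mice. The mean rose from 10.1 ± 2.85 to 23.9 ± 2.14 FPKM (SD, n = 4), a ratio of 2.36. The log2 fold change came to 1.20 (SE 0.19, limma adjusted p = 0.0035), and it was 1.02 (limma adjusted p = 0.0012) without flow-through replicate 1.

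*Dusp4* (ENSMUSG00000031530; chromosome 8, 34807297 to 34819894, plus strand), another inducible nuclear phosphatase, was low in the flow-through. It was at 0.984, 2.61, 2.22 and 2.56 FPKM in flow-through replicates 1 to 4. In IL18Rαhi replicates 1 to 4 it was at 3.87, 5.76, 6.14 and 5.95 FPKM. The lowest IL18Rαhi library was thus above the highest flow-through library, and replicate 1 was the lowest of each fraction. The ratio of the means, 5.43 ± 1.05 over 2.09 ± 0.759 FPKM, was 2.60. The log2 fold change came to 1.08 (SE 0.22, limma adjusted p = 0.0088), which understates the change of a gene of this level, and 0.88 (limma adjusted p = 0.0054) without flow-through replicate 1.

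*Dusp7* (ENSMUSG00000053716; chromosome 9, 106368632 to 106375724, plus strand) is a cytoplasmic ERK phosphatase. Flow-through replicates 1 to 4 were at 9.66, 14.5, 11.3 and 14.2 FPKM, and IL18Rαhi replicates 1 to 4 at 19.9, 17.3, 18.3 and 18.4 FPKM. The fractions did not overlap, and the IL18Rαhi libraries varied little, with a coefficient of variation of 5.78% against 18.9% in the flow-through. The mean rose 1.49-fold, from 12.4 ± 2.35 to 18.5 ± 1.07 FPKM. The log2 fold change came to 0.55 (SE 0.13, limma adjusted p = 0.0154), and 0.45 (limma adjusted p = 0.0149) without flow-through replicate 1. This call was lost when each library was shifted to an equal mean log2 level of the CD8 T-cell identity genes, called T-cell scaling below (log2 fold change 0.21, limma adjusted p = 0.35). That scaling moved the median of all genes tested to -0.36 and called 2.89% of them higher and 6.86% lower. *Dusp5* (0.86, limma adjusted p = 0.0138) and *Dusp4* (0.74, limma adjusted p = 0.041) were still called under it.

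*Dusp6* (ENSMUSG00000019960; chromosome 10, 99263231 to 99267489, plus strand), the other cytoplasmic ERK phosphatase, ran in the opposite direction in 3 of 4 mice. It was at 9.59, 18.7, 16.9 and 19.5 FPKM in flow-through replicates 1 to 4 and at 10.9, 13.8, 12.5 and 13.8 FPKM in IL18Rαhi replicates 1 to 4. The fractions overlapped only through flow-through replicate 1, which was the lowest of all 8 libraries. Over all libraries the log2 fold change came to -0.28 (SE 0.20, limma adjusted p = 0.34, 95% interval -0.74 to 0.19), so that no difference was shown. Without flow-through replicate 1 it was -0.50 (limma adjusted p = 0.0104), and under T-cell scaling -0.62 (limma adjusted p = 0.044), beside the shift of all genes to -0.36.

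The ERK phosphatases were also set against each other within a library, where the scaling of the library cancels. The choice of these ratios was made after the values had been seen, so they are described without a test. *Dusp5* was at 0.673, 0.655, 0.550 and 0.640 times the level of *Dusp6* in flow-through replicates 1 to 4 and at 2.01, 1.78, 1.78 and 1.92 times in IL18Rαhi replicates 1 to 4. *Dusp6* was thus the higher of the pair in each flow-through library and *Dusp5* in each IL18Rαhi library. The ratio of *Dusp7* to *Dusp6* was 0.670 to 1.01 in the flow-through and 1.25 to 1.82 in the IL18Rαhi libraries, and that of *Dusp4* to *Dusp6* was 0.103 to 0.139 and 0.355 to 0.490. None of the ratios overlapped between the fractions.

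**Figure D2:**
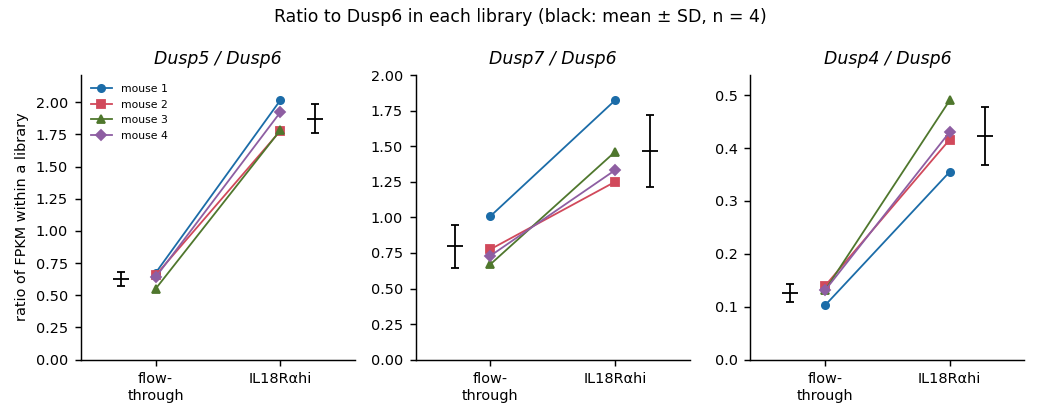
Ratio of the FPKM of *Dusp5*, *Dusp7* and *Dusp4* to that of *Dusp6* within each library, by fraction. Lines join the libraries of a mouse and black bars give the mean ± SD of 4 libraries. The *Dusp5* ratio lies at 0.550 to 0.673 in the flow-through and at 1.78 to 2.01 in the IL18Rαhi libraries.

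*Dusp22* (ENSMUSG00000069255; chromosome 13, 30659999 to 30711231, plus strand) is an atypical phosphatase that acts on the T-cell receptor kinase Lck. Its FPKM was 1.61, 3.71, 2.93 and 3.76 in flow-through replicates 1 to 4 and 3.54, 7.50, 4.65 and 6.57 in IL18Rαhi replicates 1 to 4. Each mouse had more in its IL18Rαhi fraction, but the mice differed enough for the fractions to overlap. The mean went from 3.00 ± 1.00 to 5.56 ± 1.80 FPKM, and the log2 fold change came to 0.71 (SE 0.25, limma adjusted p = 0.067). Without flow-through replicate 1 it was 0.52 (limma adjusted p = 0.12). With the mouse as a block the SE was 0.10 and the limma adjusted p 0.0020. Without a block the call was also reached by leaving out IL18Rαhi replicate 1 (limma adjusted p = 0.039), and under T-cell scaling the log2 fold change was 0.37 (limma adjusted p = 0.25).

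*Dusp12* (ENSMUSG00000026659; chromosome 1, 170873498 to 170885540, minus strand), an atypical phosphatase with a zinc-binding domain, was the member with lower values in each mouse. Flow-through replicates 1 to 4 were at 12.7, 12.7, 13.4 and 12.9 FPKM, the narrowest group of any member, with a coefficient of variation of 2.52%. IL18Rαhi replicates 1 to 4 were at 8.71, 10.5, 12.2 and 10.5 FPKM. The highest IL18Rαhi library stayed below the lowest flow-through library. Without flow-through replicate 1 the log2 fold change was -0.29 (limma adjusted p = 0.079). The log2 fold change of -0.29 (SE 0.10) missed the threshold without a block (limma adjusted p = 0.061) and passed it with the mouse as a block (limma adjusted p = 0.032) or without IL18Rαhi replicate 3 (log2 fold change -0.36, limma adjusted p = 0.038). A pair of genes on the opposite strand overlap *Dusp12*, of which *Gm26620* reached 3.55 FPKM, and reads of such a pair are not told apart where counting ignores strand.

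**Figure D3:**
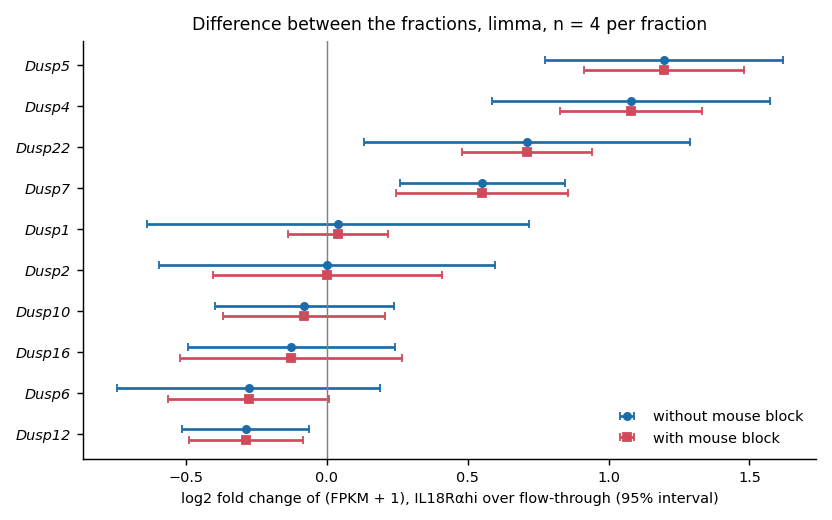
Log2 fold change of FPKM + 1 between IL18Rαhi and flow-through libraries for the 10 phosphatase genes, with 95% intervals from limma without (circles) and with (squares) the mouse as a block. *Dusp5*, *Dusp4* and *Dusp7* lie above 0 under both fits, and the interval of *Dusp1* narrows from -0.64 to 0.72 without the block to -0.14 to 0.22 with it.

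*Dusp1* and *Dusp2* were by far the most abundant members, with 72.5 to 81.4% of the summed FPKM of the 10 genes in the flow-through libraries and 70.4 to 76.1% in the IL18Rαhi libraries. *Dusp1* (ENSMUSG00000024190; chromosome 17, 26505590 to 26562128, minus strand) encodes a nuclear phosphatase of p38, JNK and ERK and is an immediate early gene. It was at 61.9, 110, 97.0 and 156 FPKM in flow-through replicates 1 to 4 and at 72.0, 118, 92.3 and 146 FPKM in IL18Rαhi replicates 1 to 4. Its level followed the mouse and not the fraction, with mouse 1 lowest and mouse 4 highest in both. The log2 fold change came to 0.04 (SE 0.30, limma adjusted p = 0.93), and with the mouse as a block its 95% interval was -0.14 to 0.22. Without flow-through replicate 1 it was -0.19 (limma adjusted p = 0.61). The annotated *Dusp1* gene overlaps *Ergic1* on the opposite strand, which was at 24.6 to 30.4 FPKM.

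The summed level of 17 immediate early and ERK-induced genes, a list that does not hold *Dusp1*, stood in the same order of mice. It was 700, 1198, 965 and 1496 FPKM in flow-through replicates 1 to 4 and 792, 1219, 935 and 1376 FPKM in IL18Rαhi replicates 1 to 4. In both fractions, mouse 1 was the lowest, followed by mouse 3, mouse 2 and mouse 4, as for *Dusp1*. This order was not particular to these genes. *Dusp5* and the sum of the CD4 T-cell marker genes, given below, had it in both fractions. The sum of the CD8 T-cell identity genes had it in the flow-through. The libraries of a mouse share its handling before the column, and the part of that in these levels was not tested.

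**Figure D4:**
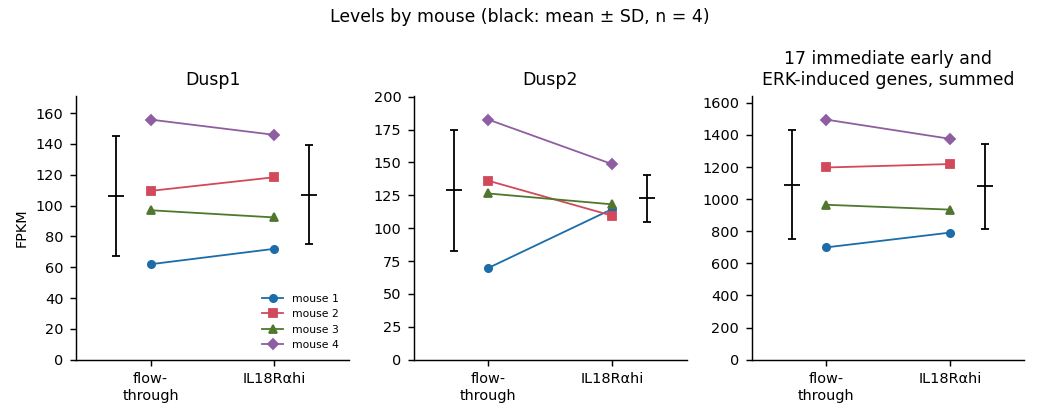
FPKM of *Dusp1*, of *Dusp2* and of the sum of 17 immediate early and ERK-induced genes by fraction. Lines join the libraries of a mouse and black bars give the mean ± SD of 4 libraries. *Dusp1* and the summed genes keep the order of the mice from flow-through to IL18Rαhi, and *Dusp2* does not.

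*Dusp2* (ENSMUSG00000027368; chromosome 2, 127336159 to 127338376, plus strand) encodes PAC-1, a nuclear phosphatase induced in activated T cells. Flow-through replicates 1 to 4 were at 69.7, 136, 126 and 183 FPKM, and IL18Rαhi replicates 1 to 4 at 115, 109, 118 and 149 FPKM. The flow-through range contained the whole IL18Rαhi range, and the coefficient of variation was 36.0% against 14.4%. *Dusp2* was lower in the IL18Rαhi fraction in 3 mice and higher in mouse 1. The log2 fold change came to 0.0014 (SE 0.26, limma adjusted p = 0.998, 95% interval -0.59 to 0.60), and it was -0.26 (limma adjusted p = 0.23) without flow-through replicate 1.

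The JNK and p38 phosphatases showed no difference between the fractions that passed the test. *Dusp10* (ENSMUSG00000039384; chromosome 1, 184013302 to 184075636, plus strand) was at 6.53, 10.1, 8.89 and 10.5 FPKM in flow-through replicates 1 to 4 and at 8.34, 7.50, 8.47 and 9.13 FPKM in IL18Rαhi replicates 1 to 4. Its log2 fold change was -0.08 (limma adjusted p = 0.70, 95% interval -0.40 to 0.24), and it was -0.21 (limma adjusted p = 0.13) without flow-through replicate 1. *Dusp16* (ENSMUSG00000030203; chromosome 6, 134715468 to 134792625, minus strand) was the least abundant member by mean FPKM in each fraction. It was at 2.45, 1.40, 1.52 and 1.29 FPKM in flow-through replicates 1 to 4 and at 1.16, 1.24, 1.72 and 1.55 FPKM in IL18Rαhi replicates 1 to 4. The value of flow-through replicate 1 lay apart from the rest, and the log2 fold change of -0.13 (limma adjusted p = 0.58, 95% interval -0.49 to 0.24) was 0.0039 without it. The intervals leave room for changes of the size seen for *Dusp12*.

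The order of levels differed between the fractions in its middle part. In the flow-through it ran *Dusp2*, *Dusp1*, *Dusp6*, *Dusp12*, *Dusp7*, *Dusp5*, *Dusp10*, *Dusp22*, *Dusp4* and *Dusp16* by mean FPKM. The ranges of neighbours overlapped except between *Dusp1* and *Dusp6* and between *Dusp10* and *Dusp22*. In the IL18Rαhi libraries *Dusp5* and *Dusp7* came next after *Dusp2* and *Dusp1*, ahead of *Dusp6*, *Dusp12* and *Dusp10*, and *Dusp22*, *Dusp4* and *Dusp16* closed the order. There *Dusp1* and *Dusp5*, *Dusp5* and *Dusp7*, *Dusp7* and *Dusp6*, and *Dusp4* and *Dusp16* did not overlap, and the other neighbours did. *Dusp4*, *Dusp5* and *Dusp7* together held 7.05 to 9.41% of the summed FPKM of the members in the flow-through and 13.2 to 17.3% in the IL18Rαhi libraries.

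The rest of the pathway was read from 8 lists with 103 genes, of which 90 were tested. Of these 14 were higher and 7 lower, or 15.6% and 7.78%, beside the 14.1% and 13.7% of all genes. In this fit the share of higher genes was near that of all genes. Leaving out IL18Rαhi replicate 2 or replicate 3 gave 8 higher genes, and leaving out flow-through replicate 3 or IL18Rαhi replicate 2 or 4 gave 4 lower genes. With the mouse as a block 33 were higher and 14 lower, and under T-cell scaling 3 were higher and 3 lower.

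Among 20 other dual-specificity and related phosphatases, 11 were tested and 2 were higher. *Dusp14*, an atypical phosphatase, rose from 1.19 ± 0.557 to 3.96 ± 0.942 FPKM (log2 fold change 1.20, limma adjusted p = 0.0073), and the cofilin phosphatase *Ssh1* rose from 6.02 ± 0.294 to 8.46 ± 0.605 FPKM (0.43, limma adjusted p = 0.0070). Of 11 MAP kinases, 8 were tested and 3 were higher. The p38β gene *Mapk11* rose from 4.32 ± 1.27 to 10.4 ± 1.02 FPKM (1.13, limma adjusted p = 0.0042), the ERK1 gene *Mapk3* from 45.4 ± 4.69 to 65.6 ± 4.44 FPKM (0.52, limma adjusted p = 0.0055) and *Mapk6*, which encodes the atypical kinase ERK3, from 21.8 ± 1.13 to 28.5 ± 1.42 FPKM (0.37, limma adjusted p = 0.0072). *Mapk11* was also the gene of the 90 whose log2(FPKM + 1) over the 8 libraries was most like that of *Dusp5* (Pearson r = 0.99) and *Dusp4* (0.98), and *Rasa3*, which encodes a RAS GTPase-activating protein, was most like *Dusp7* (0.96). These 8 libraries fall into the fractions compared, so the correlations restate the shared difference.

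Of 7 MAP kinase kinases, all tested, *Map2k3*, which activates p38, was higher (log2 fold change 0.44, limma adjusted p = 0.025), and *Map2k2*, the most abundant at a mean of 92.8 FPKM, had a log2 fold change of -0.21 (limma adjusted p = 0.24). Of 12 genes that carry the signal from RAS to RAF, 2 were higher, the RAF scaffold *Ksr1* (9.58 ± 0.644 to 19.1 ± 2.20 FPKM, log2 fold change 0.92, limma adjusted p = 0.00084) and the adaptor *Grb2* (0.29, limma adjusted p = 0.037). Of 11 genes of the JNK and p38 arms, 1 was higher and 1 lower. The stress-induced *Gadd45a* fell from 18 ± 4.04 to 8.46 ± 1.65 FPKM (-1.0, limma adjusted p = 0.0049), and *Map3k4* rose (0.28, limma adjusted p = 0.025).

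Other inhibitors of RAS-ERK signaling did not move as a block with *Dusp4*, *Dusp5* and *Dusp7*. Of 15 listed, 14 were tested, 3 were higher and 2 lower. *Spred1* and *Spred2*, which restrain RAS activation, fell by 0.69 and 0.37 on the log2 scale (limma adjusted p = 0.0078 and 0.0142). *Ptpn7*, a tyrosine phosphatase of ERK and p38, rose by 0.30 (limma adjusted p = 0.0192), and *Rasa3* rose by 0.57 (limma adjusted p = 0.032). The largest change was that of *Lgals3*, which encodes galectin-3, a lectin that is not a dedicated inhibitor of the pathway, from 80.0 ± 23.7 to 289 ± 11.7 FPKM (log2 fold change 1.89, limma adjusted p = 0.00077).

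The 17 immediate early and ERK-induced genes, all tested, divided as well, with 2 higher and 2 lower. *Egr2* (log2 fold change 0.63, limma adjusted p = 0.0049) and *Egr3* (0.73, limma adjusted p = 0.0251), transcription factors induced by the T-cell receptor, rose. *Myc* fell from 102 ± 4.70 to 42.2 ± 3.88 FPKM (-1.26, limma adjusted p = 0.00020), and *Etv5*, an ETS factor induced by ERK, fell from 2.43 ± 0.505 to 1.52 ± 0.260 FPKM (-0.43, limma adjusted p = 0.047). With the mouse as a block 8 were higher and 4 lower, where 22.2% and 22.7% of all genes were called. Of 10 genes of dissociation and heat stress, the chaperone genes *Hspe1* (-0.71, limma adjusted p = 0.022) and *Hspa8* (-0.42, limma adjusted p = 0.043) were lower and none was higher, or 2 higher and 4 lower with the mouse as a block.

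**Figure D5:**
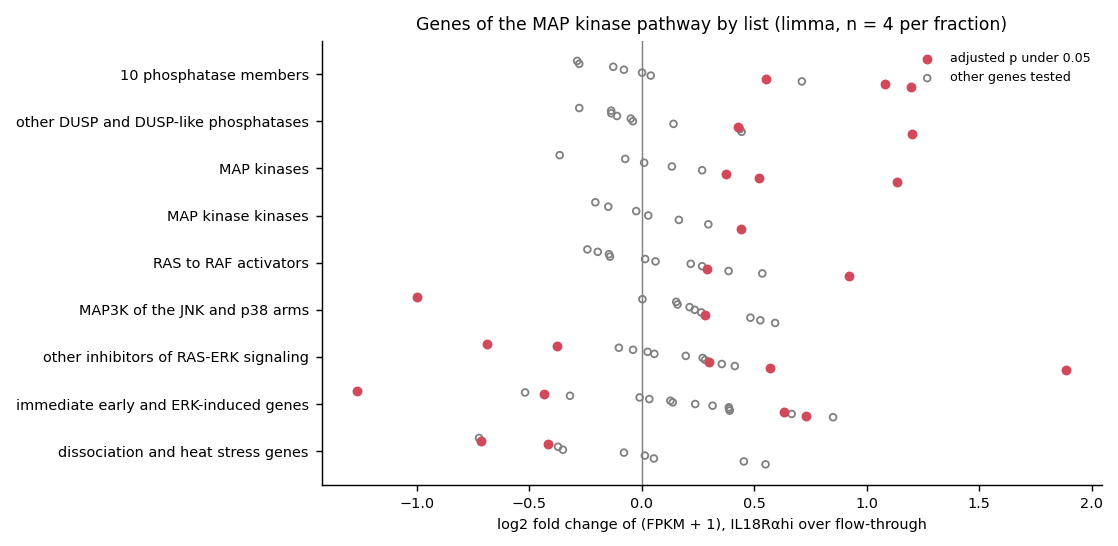
Log2 fold change of FPKM + 1 between IL18Rαhi and flow-through libraries for the 10 phosphatase genes and for the tested genes of 8 pathway lists, each point a gene. Filled points have a limma adjusted p under 0.05. They number 3 of 10 members, all to the right of 0, and lie on both sides of 0 in the lists of other inhibitors and of immediate early genes.

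Genes listed as markers of other cell types moved with the fractions, and so beside *Dusp4*, *Dusp5* and *Dusp7*. Of 7 dendritic-cell genes 6 were higher, with a summed level of 14.7 to 24.3 FPKM in flow-through and 36.7 to 73.4 FPKM in IL18Rαhi libraries. Of 7 NK-cell genes 6 were higher (332 to 620 and 883 to 1001 FPKM), and of 3 CD4 T-cell genes all 3 (9.51 to 16.6 and 27.2 to 53.7 FPKM). These sums did not overlap between the fractions. Most of the NK-cell sum came from *Nkg7* (310 to 582 and 781 to 888 FPKM). The paper reports *Ncr1* and *Klrb1c* as raised in the IL-18Rαhi-enriched CD8 T cells, so the NK-cell list does not tell NK cells from such T cells. Of 10 myeloid genes 4 were higher (149 to 575 and 466 to 1610 FPKM), of 5 γδ T-cell genes 2 (50.8 to 78.1 and 68.0 to 140 FPKM) and of 6 tested B-cell genes 1 (25.9 to 67.2 and 41.0 to 83.7 FPKM). Of 8 erythroid genes 1 was lower (877 to 2705 and 217 to 1512 FPKM), and of 6 progenitor genes 3 (646 to 3119 and 521 to 2922 FPKM). Of all genes tested 14.1% were higher and 13.7% lower. With the mouse as a block these shares were 22.2% and 22.7%. Then 8 myeloid and 4 γδ T-cell genes were higher, and 2 B-cell genes were higher and 1 lower. Of the erythroid genes 5 were lower, and of the progenitor genes 4 were lower and 1 higher. The counts of dendritic-cell, NK-cell and CD4 T-cell genes stayed the same.

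Without the block, none of the 8 CD8 T-cell identity genes was called in either direction, with a median log2 fold change of 0.38. With the mouse as a block, *Cd2* was called higher (limma adjusted p = 0.030). The sum of the 8 genes, given above by fraction, overlapped between the fractions, with means of 2127 FPKM (flow-through) and 2601 FPKM (IL18Rαhi). The lower mean included flow-through replicate 1 (1337 FPKM). *Cd8a*, *Cd3e*, *Cd3g*, *Cd2* and *Lck* did not overlap and were higher in 4 of 4 mice. *Cd8b1*, *Cd3d* and *Cd247* overlapped, higher in 2 mice and lower in 2. None of the 62 marker genes was at 0 in every library. In the IL18Rαhi libraries the myeloid sum was 466, 1610, 574 and 870 FPKM in replicates 1 to 4, the same order of mice as *Dusp22*. In the flow-through it was 149, 575, 317 and 356 FPKM, where the orders differed in mice 2 and 4. The CD4 T-cell sum was 9.51, 13.7, 11.6 and 16.6 FPKM in flow-through replicates 1 to 4. It was 27.2, 41.4, 34.5 and 53.7 FPKM in IL18Rαhi replicates 1 to 4. In both fractions mouse 1 was lowest, followed by mouse 3, mouse 2 and mouse 4, the same order as for *Dusp5* and *Dusp1*. The part of other cell types in the differences of the phosphatase genes was not tested.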

How the data were processed

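Polyadenylated RNA of 8 libraries, 4 per fraction, had been sequenced. The authors filtered low-quality reads, aligned the rest to mm10 with TopHat and deposited FPKM from Cufflinks 2.1.1 with multi-read and fragment bias correction. The annotation release is not given in the sources used here. As far as stated, library strand was not used in counting, so genes that overlap on opposite strands are uncertain. Fragment counts were not used here, and depth was estimated from the smallest steps of FPKM in low genes.

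Fractions were compared with limma 3.58.1 (R 4.3.3; moderated test with a mean-variance trend) on log2(FPKM + 1) for genes averaging 1 FPKM or more across 8 libraries, with Benjamini-Hochberg adjustment over all of them and a threshold of 0.05. The script was tested on simulated data. Each mouse gave both fractions, but the labels do not tie a replicate number to a mouse, and this was inferred. Libraries of the same number deviated together from their group means (r = 0.31 to 0.66 over 4 pairs, against -0.60 to 0.41 over 12 other pairs). Flow-through replicate 2 and IL18Rαhi replicate 4 (0.41) were more alike than the libraries numbered 3 (0.31). Deviations from a group mean cancel within a fraction, so part of this contrast is built in and it cannot settle the pairing. A fit with the replicate number as a block is given where it changed the call of a member. For the gene lists it is given mostly as counts and not for each list, and it changed calls of genes not named here. P-values without the block rest on the spread among the libraries of a fraction and treat all 8 libraries as independent. P-values with the block rest on the spread of the differences within a mouse. Both come from 4 mice of 1 experiment. Alternatives were pseudocounts of 0.1 and 0.01, no filter, a mean of at least 5 FPKM, median, T-cell and quantile scaling, the block, and leaving out each library.

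The members and gene lists were chosen with earlier results of these data known. All members are named. Of each pathway list up to 4 called genes with the lowest adjusted p are named, or the 2 most abundant where fewer than 2 were called, and for each called member the list gene with the highest Pearson r.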

Additional observations from a re-analysis of the deposited data

Results flagged for a closer look

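*Dusp4* in IL18Rαhi replicate 1, at 3.87 FPKM, lay far below the other IL18Rαhi libraries, which were at 5.76 to 6.14 FPKM. Its gap to the nearest library was 0.83 of the range of the group. Of 20 groups of 4 libraries examined (10 genes in 2 fractions) it was the 1 that passed Dixon's criterion, and chance gives about 1 in 20. Without this library the log2 fold change of *Dusp4* was 1.21 (limma adjusted p = 0.0099).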

How the results depend on the processing

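*Dusp4* and *Dusp5* kept their direction and their call under each alternative that could be run, with log2 fold changes of 0.74 to 1.45 and 0.86 to 1.30. *Dusp7* lost its call under T-cell scaling alone (0.21). With the replicate block, the paired fit, *Dusp12* (limma adjusted p = 0.032) and *Dusp22* (0.0020) were called, and no other call among the members changed. *Dusp22* was also called with quantile scaling (0.037). *Dusp1* turned to -0.30 under T-cell and -0.0081 under quantile scaling and *Dusp2* to -0.34 and -0.055. Leaving out 1 library each gave -0.19 to 0.25 for *Dusp1*, -0.26 to 0.20 for *Dusp2* -0.19 to 0.0039 for *Dusp16* and -0.21 to -0.0059 for *Dusp10*. Members called higher numbered 3 to 4 and lower 0 to 1 on leaving out a library, the latter *Dusp6* without flow-through replicate 1 and *Dusp12* without IL18Rαhi replicate 3. T-cell scaling called 1 member lower (*Dusp6*), 351 of all genes higher and 834 lower, and 3 pathway genes in each direction. The block called 1 member lower (*Dusp12*), 2705 genes higher and 2763 lower, and 33 and 14 pathway genes. Leaving out a library gave 1124 to 1802 genes higher and 940 to 1781 lower, with 1124 and 956 without IL18Rαhi replicate 2, 1129 and 973 without IL18Rαhi replicate 4 and 940 lower without flow-through replicate 3, and 8 to 17 pathway genes higher and 4 to 9 lower. The cause of these shifts was not tested. A mean of at least 5 FPKM removed *Dusp4*, *Dusp16* and *Dusp22*.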
